A study of Homo sapiens with 21 samples.

Results

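Genes of protein folding in the endoplasmic reticulum (ER) were followed in pancreatic cells exposed to oxidative stress or to DNA double-strand breaks. The 10 genes were HSPA5, HSP90B1, PDIA4, DNAJB9, SDF2L1, HERPUD1, XBP1, EDEM1, HYOU1 and CRELD2, and they make 10 of the 23368 genes in the table. They were chosen by gene symbol, with earlier results of these data known. All 10 were among the 19694 genes whose value was not 0 in every library, so each was tested. RNA-seq was done in hTERT-HPNE, a nontransformed human pancreatic line immortalized with a TERT transgene, so every group is the same single line grown under the same conditions. The control group was untreated cells, taken at 0 h. In 3 groups the medium was replaced and H2O2 was added at 300 μM, with RNA taken after 4, 8 or 24 h. In the other 3 groups the medium was replaced and neocarzinostatin (NCS), a drug that breaks DNA, was added at 400 ng/ml for the same times. Each of the 7 groups has 3 replicates, 21 libraries in all. Since cells given fresh medium alone are not analysed here at 4, 8 or 24 h, the agent cannot be told apart from the medium change and the hours in culture in any comparison with untreated cells, whereas H2O2 and NCS at the same time share both.

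The ER folds proteins for secretion and for membranes, and its chaperones hold them until they fold or are sent back to the cytosol for degradation. When unfolded protein builds up, the sensors IRE1, PERK and ATF6 start the unfolded protein response. ATF6 and the spliced form of XBP1 switch on chaperone and degradation genes, while PERK slows translation and raises the factor ATF4. Pancreatic tissue, with its large output of secreted protein, is a classic setting of this response.

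The values are rLog values, a log2 scale made by the authors from read counts, on which differences are shrunk, most of all for genes with few reads. Read totals are not given, so depth is unknown and no counting interval was calculated. Library medians lay between 7.14 and 7.19, and no pair of libraries was identical. Replicate 2 of H2O2 8 h stood apart, at a distance of 14.7 to 15.1 from its own group over all varying genes, against 11.4 between the other two. In the other groups replicates lay 8.94 to 11.2 apart. The mesenchymal and progenitor markers VIM (16.8 to 17.2) and NES (11.8 to 12.3) and the transgene product TERT (13.9 to 14.4) were high in every library. The duct keratin KRT19 was not above 0.73, whereas KRT18 reached 11.4 to 11.9 and KRT8 reached 7.73 to 8.28. Of the markers of acinar and islet cells, PRSS1, CELA3A and INS were listed at 0 in all libraries and none of the others exceeded 0.68. Markers of other cells were low as well, with EPCAM not above -1.74, PTPRC not above 0.98, ALB not above 1.37, PECAM1 not above 2.42 and CDH1 not above 3.88.

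Several of the 10 genes are textbook carriers of the ER stress response element (ERSE), a promoter motif bound by ATF6 together with NF-Y, so the matches are shown first. RefSeq promoter windows (GRCh38.p14, 250 bases before to 50 after the transcription start) were found for all 10 genes and searched on both strands. ERSE was searched as CCAAT, any 9 bases, then CCACG, and ERSE-II as ATTGG, any 1 base, then CCACG. ERSE occurred in 4 of the 10 genes, HSPA5, HSP90B1, XBP1 and CRELD2, and in 25 of all 27305 genes with a window (0.0916%). ERSE-II occurred in SDF2L1, HERPUD1 and HYOU1 and in 19 of all genes (0.0696%). Together they were in 7 of the 10, against 44 of all genes (0.161%). Related genes, listed further below, held them too, in 4 of 16 other ER folding genes with a window (25%). They were in 0 of the degradation and translocation, sensor and protease, PERK and ATF4 branch, or heat shock genes. The sequences below run 5′ to 3′ on the strand of the gene, with the match in capitals and 5 bases on each side in lower case. Where a match lies on the other strand, the capitals read as its reverse complement. The list includes every ERSE or ERSE-II match in the 10 genes.
HSPA5 ERSE, starting 66 bases before the start, chr9:125241386-125241414 (minus strand): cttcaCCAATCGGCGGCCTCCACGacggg
HSP90B1 ERSE, 194 bases before, chr12:103930211-103930239 (plus strand): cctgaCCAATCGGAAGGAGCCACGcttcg
HSP90B1 ERSE on the other strand, 89 bases before, chr12:103930316-103930344 (plus strand): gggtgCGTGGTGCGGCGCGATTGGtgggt
XBP1 ERSE, 52 bases before, chr22:28800598-28800626 (minus strand): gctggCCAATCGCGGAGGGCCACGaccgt
CRELD2 ERSE on the other strand, 80 bases before, chr22:49918549-49918577 (plus strand): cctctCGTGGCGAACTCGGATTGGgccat
SDF2L1 ERSE-II on the other strand, 188 bases before, chr22:21642109-21642129 (plus strand): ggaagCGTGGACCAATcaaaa
HERPUD1 ERSE-II, 117 bases before, chr16:56932020-56932040 (plus strand): cgccgATTGGGCCACGttggg
HYOU1 ERSE-II on the other strand, 185 bases before, chr11:119057375-119057395 (minus strand): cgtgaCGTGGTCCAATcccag
HYOU1 ERSE-II on the other strand, 79 bases before, chr11:119057269-119057289 (minus strand): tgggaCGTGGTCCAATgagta

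The second HSP90B1 match overlaps an annotated exon of that gene in GENCODE v29, and the other matches overlap no annotated exon of their genes. The core of the XBP1 site known as UPRE, TGACGTGG, was found in HYOU1, where it overlaps the upstream ERSE-II match, and in 253 of all genes (0.927%). It was also in 3 of 16 other ER folding genes (18.8%) and 2 of 15 degradation and translocation genes (13.3%), and in 0 of the other lists. The core of the sites bound by C/EBP and ATF factors, TGATGNAA, was found in HERPUD1 and in 1217 of all genes (4.46%). It was also in 2 of 10 PERK and ATF4 branch genes (20%) and 1 of 10 sensors and proteases (10%). Of the degradation and translocation genes 1 of 15 held it (6.67%), and 0 of the other ER folding or heat shock genes did. PDIA4, DNAJB9 and EDEM1 held none of these 4 motifs in their windows. A match is a string of letters in a reference sequence, and binding was not measured.

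**Figure D1:**
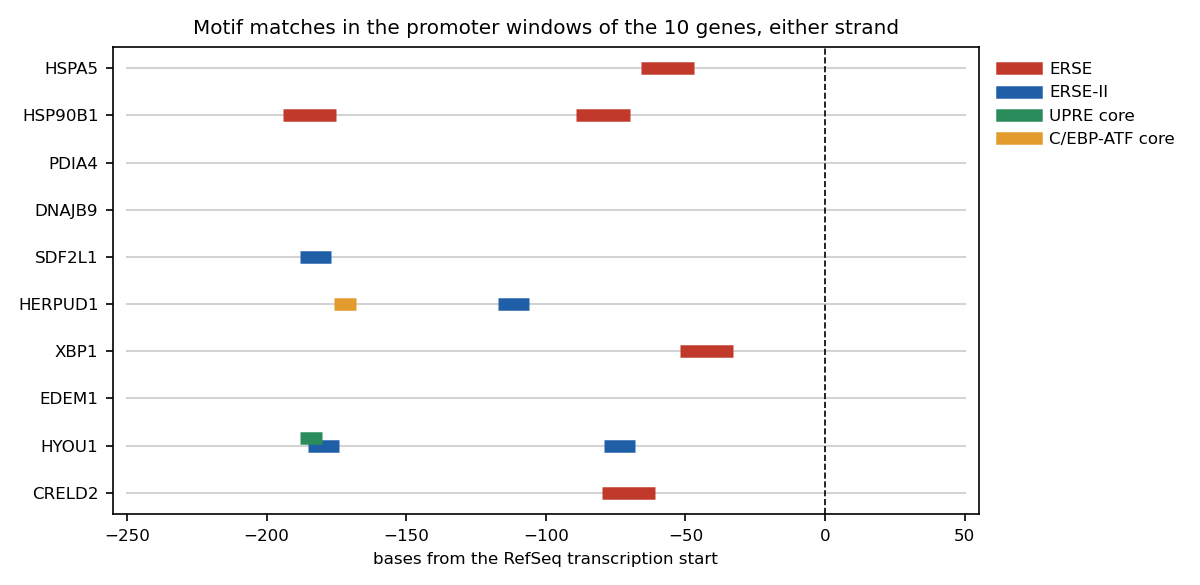
Position of each motif match in bases from the RefSeq transcription start (dashed line) for the 10 genes. There is 1 grey line per gene, for its first promoter window, and matches on either strand are drawn as coloured blocks to scale. In 7 of the 10 genes the window holds an ERSE (red) or ERSE-II (blue) block, each beginning 52 to 194 bases before the start, and PDIA4, DNAJB9 and EDEM1 hold none. PDIA4 and XBP1 have a second window without a match, which is not drawn.

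After H2O2 the genes rose early and then parted. At 4 h 9 of the 10 were higher than in untreated cells and 0 were lower, with a median log2 difference of 0.26, against 26.2% of all tested genes higher and 19.7% lower and a median near 0. At 8 h 10 of 10 were higher (median 0.39), against a background of 18.8% higher and 18.6% lower. At 24 h 6 were lower (HSPA5, HSP90B1, PDIA4, SDF2L1, HYOU1 and CRELD2) and 4 were higher (DNAJB9, HERPUD1, XBP1 and EDEM1), against 19.9% lower and 20.2% higher. Here and below a gene is called higher or lower, risen or fallen, where limma gave an adjusted p-value under 0.05. The shares are over all 19694 tested genes, including low ones, on which rLog differences are shrunk most. All 10 genes had a mean of at least 5, and shares among such genes only were not calculated. The study's added limit was an absolute log2 fold change over 1 from DESeq2, applied here to differences of shrunken rLog values. Only HERPUD1 passed it at 4 h and only DNAJB9 at 8 h, against 0.655% and 0.32% of all genes. HSPA5 fell just short at 8 h, at 0.995.

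With NCS most calls came at 8 h. At 4 h only EDEM1 and CRELD2 were higher and 0 were lower, against 7.47% of all genes higher and 9.72% lower. At 8 h 10 of 10 were higher (median 0.29), against 10.5% higher and 13.3% lower. At 24 h DNAJB9, XBP1 and HSP90B1 were higher and PDIA4, SDF2L1 and CRELD2 were lower, against 19.6% higher and 18.4% lower. None of the 10 passed a log2 difference over 1 after NCS. All 6 comparisons use the same 3 untreated libraries, so their values are not independent of each other.

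**Figure D2:**
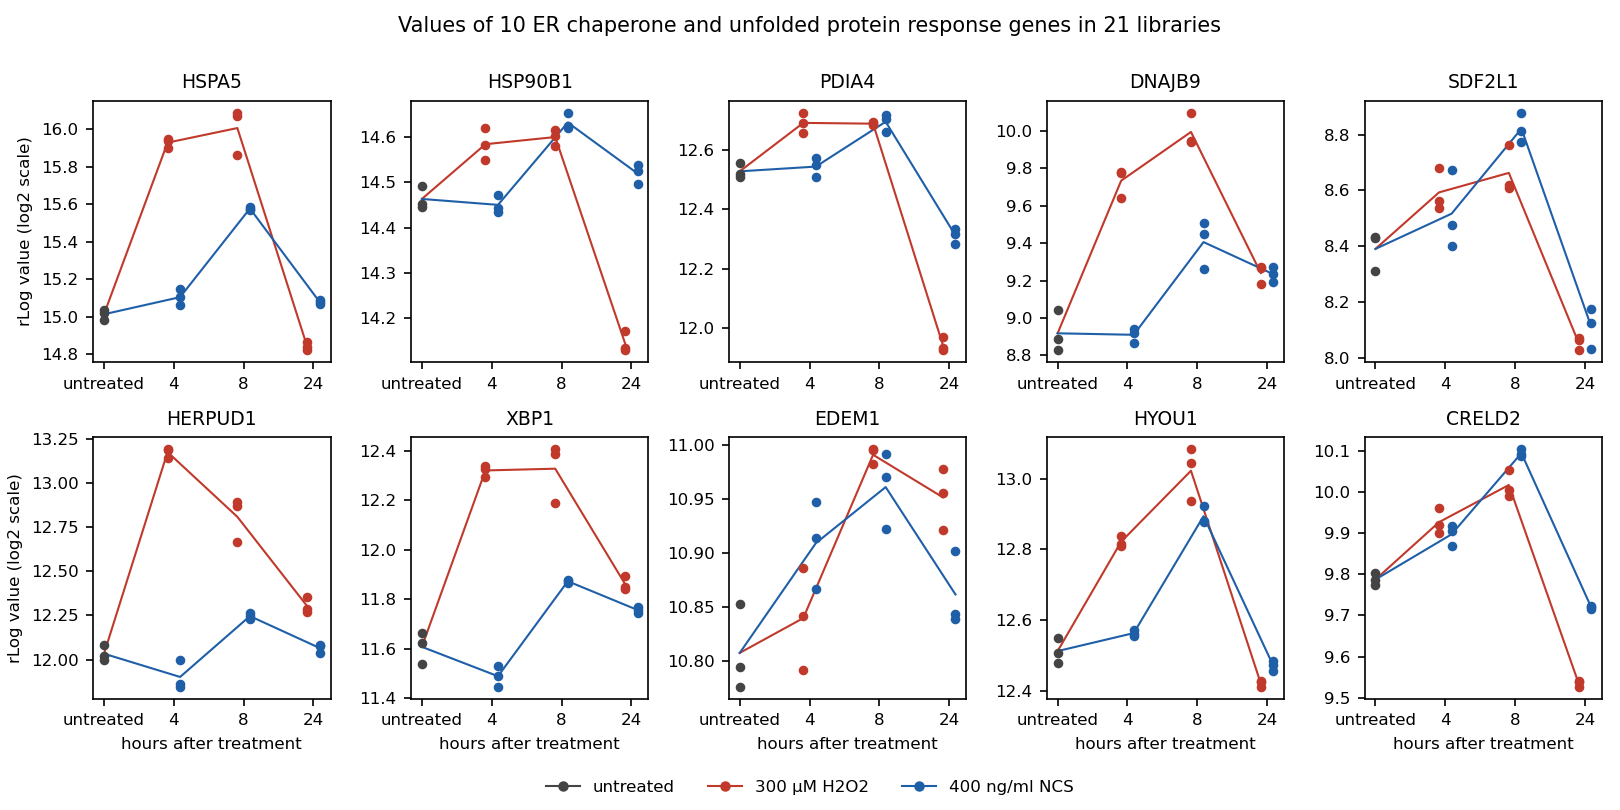
rLog value (log2 scale, with a different axis range in each panel) of each gene in the 21 libraries, by hours after treatment. Points are single libraries, lines join group means, and grey, red and blue mark untreated, H2O2 and NCS. HSPA5 rises from about 15.0 to above 15.8 in all H2O2 libraries at 4 and 8 h and returns below the untreated libraries at 24 h, and EDEM1 stays within a range of 0.22.

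HSPA5 encodes BiP, the main Hsp70 chaperone of the ER, which also holds the sensors inactive in unstressed cells. Its values were 15.04, 15.02 and 14.98 in untreated cells. After H2O2 they were 15.90, 15.94 and 15.95 at 4 h, 16.07, 15.86 and 16.09 at 8 h, then 14.84, 14.82 and 14.86 at 24 h. Every 4 h and 8 h library thus lay above, and every 24 h library below, all untreated ones. Each SE, given after ± here and below, pools the spread of a gene over all 7 groups. For HSPA5 the SD of single groups ranged from 0.007 at NCS 8 h to 0.13 at H2O2 8 h. The log2 difference after H2O2 was 0.92 ± 0.04 at 4 h (SE, adjusted p = 4.08e-12), a ratio of 1.89. At 8 h it was 0.995 ± 0.04 (adjusted p = 8.27e-12), and without the distant replicate 2 it was 1.07. At 24 h it was -0.17 ± 0.04 (adjusted p = 0.00187). That last call was lost under quantile normalization, where the difference was -0.10 (adjusted p = 0.0601). After NCS the values were 15.15, 15.06 and 15.11 at 4 h, 15.58, 15.59 and 15.57 at 8 h, then 15.07, 15.08 and 15.09 at 24 h. All NCS libraries lay above all untreated ones, yet only the 8 h group passed the test, with a log2 difference of 0.57 ± 0.04 (adjusted p = 6.4e-09), against 0.09 at 4 h and 0.065 at 24 h. The 24 h difference passed in a fit of only the groups compared (adjusted p = 0.0376).

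HSP90B1, or GRP94, is the Hsp90 of the ER and folds integrins and Toll-like receptors. Its 21 libraries lay between 14.13 and 14.65, a narrower span than the 14.82 to 16.09 of HSPA5. The values were 14.49, 14.45 and 14.45 in untreated cells, 14.55, 14.58 and 14.62 at 4 h of H2O2, 14.60, 14.58 and 14.62 at 8 h, then 14.13, 14.13 and 14.17 at 24 h. It rose by 0.12 at 4 h and 0.14 at 8 h, and the 24 h libraries were below all others, with a log2 difference of -0.32 ± 0.02 (adjusted p = 2.42e-10). After NCS the group means were 14.45, 14.63 and 14.52, with a rise of 0.17 at 8 h that left all libraries above the untreated ones. The 24 h difference of 0.06 passed the test (adjusted p = 0.0354), but lost it under quantile normalization (0.01), in a fit of only the groups compared, and without untreated replicate 2 (0.05) or 3 (0.05) or NCS 24 h replicate 1 (0.05) or 3 (0.05). An exon of HSP90B1 overlaps the microRNA gene MIR3652 on the same strand.

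HYOU1 encodes GRP170, a large Hsp70 relative that also serves as a nucleotide exchange factor for BiP. Its untreated values were 12.51, 12.55 and 12.48. With H2O2 they were 12.82, 12.81 and 12.84 at 4 h, 13.05, 12.94 and 13.08 at 8 h, then 12.42, 12.43 and 12.41 at 24 h. The log2 difference grew from 0.31 ± 0.03 at 4 h (adjusted p = 4.52e-08) to 0.51 ± 0.03 at 8 h (adjusted p = 1.96e-10), and all of these libraries were above the untreated ones. At 24 h it was -0.09 ± 0.03 (adjusted p = 0.012), a call lost under quantile normalization (-0.04) and without untreated replicate 2 (-0.07, adjusted p = 0.0717). NCS raised HYOU1 by 0.38 at 8 h, with values of 12.88, 12.92 and 12.88, and the differences of 0.05 at 4 h and -0.04 at 24 h did not pass. Under quantile normalization the first was 0.07 and passed (adjusted p = 0.0495). Exons of HYOU1 overlap those of an antisense gene, and the strand setting of the count is not given in the sources used here, so reads of the pair may be mixed.

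PDIA4 encodes ERp72, a disulfide isomerase that forms and rearranges disulfide bonds in the ER. It was the gene of the 10 that fell most below untreated cells. Untreated libraries were at 12.52, 12.56 and 12.51, H2O2 4 h libraries at 12.69, 12.66 and 12.73, and H2O2 8 h libraries at 12.69, 12.69 and 12.68. The H2O2 24 h libraries, at 11.97, 11.93 and 11.92, were below every other library of the series. The log2 difference at 24 h was -0.59 ± 0.02 (adjusted p = 2.2e-13), a ratio of 0.666, after rises of 0.16 at both earlier times. NCS gave 12.71, 12.72 and 12.66 at 8 h and 12.32, 12.33 and 12.28 at 24 h. These are a rise of 0.17 and then a difference of -0.22 ± 0.02 (adjusted p = 2.8e-07), with neither group overlapping the untreated libraries.

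CRELD2, a secreted and ER-resident protein with a disulfide isomerase activity, also rose and then ended below untreated cells with H2O2. Untreated values were 9.80, 9.77 and 9.79, and H2O2 8 h values 10.05, 9.99 and 10.01, a rise of 0.23 ± 0.02 (adjusted p = 1.25e-07) that followed 0.14 at 4 h. At 24 h of H2O2 the 3 libraries were at 9.54, 9.54 and 9.53, with a difference of -0.25 ± 0.02 (adjusted p = 1.65e-08). CRELD2 was 1 of the 2 genes higher after 4 h of NCS (0.11, adjusted p = 0.00125), and at 8 h it reached 10.10, 10.09 and 10.09, a rise of 0.31. At 24 h of NCS the difference was -0.07 (adjusted p = 0.0184). That call was lost with library medians aligned (-0.06), under quantile normalization (-0.0044), with only genes of mean 5 or more (-0.07), and without untreated replicate 1 (-0.06) or NCS 24 h replicate 2 (-0.065).

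DNAJB9 and SDF2L1 both work with BiP. DNAJB9, or ERdj4, is a J-domain cochaperone that binds BiP to misfolded clients and to IRE1. Its untreated values were 9.04, 8.89 and 8.83. H2O2 gave 9.78, 9.64 and 9.78 at 4 h, 10.10, 9.95 and 9.94 at 8 h, then 9.27, 9.27 and 9.18 at 24 h, all above every untreated library. After 4 h the log2 difference came to 0.82 ± 0.06 (adjusted p = 6.61e-09), after 8 h to 1.08 ± 0.06 (adjusted p = 4.89e-10) and after 24 h to 0.32 ± 0.06 (adjusted p = 0.000342). NCS gave 8.94, 8.87 and 8.92 at 4 h, within the untreated range, then 9.51, 9.45 and 9.26 at 8 h and 9.27, 9.24 and 9.19 at 24 h. These differed from untreated cells by 0.49 and 0.32, and both passed. DNAJB9 shares exon sequence with THAP5 on the opposite strand, so reads from the shared part may belong to either gene.

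SDF2L1 encodes an ER protein that joins chaperone complexes of BiP and J-domain proteins. In contrast to DNAJB9, it ended below untreated cells after both agents. Untreated values were 8.31, 8.43 and 8.43, and H2O2 values 8.54, 8.56 and 8.68 at 4 h, 8.61, 8.62 and 8.76 at 8 h, then 8.07, 8.03 and 8.07 at 24 h. The differences were 0.20 ± 0.06 (adjusted p = 0.0126), 0.27 ± 0.06 (adjusted p = 0.00176) and -0.34 ± 0.06 (adjusted p = 0.000206). The first was lost without untreated replicate 1 (0.16, adjusted p = 0.0685) or without H2O2 4 h replicate 3 (0.16, adjusted p = 0.0703). After NCS the values were 8.81, 8.88 and 8.77 at 8 h, the highest group for this gene, and 8.03, 8.18 and 8.13 at 24 h. NCS raised SDF2L1 by 0.43 ± 0.06 by 8 h (adjusted p = 3.57e-05), and the 24 h group was below untreated cells (-0.28 ± 0.06, adjusted p = 0.00133).

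HERPUD1 and EDEM1 act in ER-associated degradation, and at 4 h of H2O2 they had the largest and smallest differences of the 10 genes. HERPUD1, or HERP, is a membrane protein of the complex that moves misfolded proteins out for degradation, and it is known as an output of both ATF6 and ATF4. Its untreated values were 12.08, 11.999 and 12.02, and those after H2O2 were 13.15, 13.19 and 13.19 at 4 h, 12.89, 12.66 and 12.87 at 8 h, then 12.27, 12.29 and 12.36 at 24 h. The groups did not overlap, and the order was 4 h, 8 h, 24 h, untreated. The log2 difference was 1.14 ± 0.05 at 4 h (adjusted p = 1.89e-12), a ratio of 2.21 and the largest of the 10 genes in any comparison with untreated cells. Smaller differences were left by 8 h (0.78 ± 0.05, adjusted p = 7.9e-10) and by 24 h (0.27 ± 0.05, adjusted p = 0.000125). After NCS the values were 11.995, 11.85 and 11.86 at 4 h, all below every untreated library, but the difference of -0.13 did not pass (adjusted p = 0.0675). It passed with only genes of mean 5 or more (adjusted p = 0.0155), with library medians aligned (-0.14, adjusted p = 0.0143) and without NCS 4 h replicate 1 (-0.18, adjusted p = 0.0194). At 8 h of NCS HERPUD1 was higher by 0.21 ± 0.05 (adjusted p = 0.00239).

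EDEM1 helps to pick misfolded glycoproteins for degradation by trimming their mannose, and is a known target of spliced XBP1. Its 21 libraries spanned only 10.78 to 11.00. Untreated values were 10.85, 10.78 and 10.79, H2O2 4 h values 10.84, 10.89 and 10.79, and H2O2 8 h values 11.00, 11.00 and 10.98. EDEM1 was the gene not called at 4 h of H2O2 (0.03 ± 0.03, adjusted p = 0.411), and it was higher by 0.18 at 8 h and by 0.14 at 24 h. With NCS the 4 h difference was 0.10 (adjusted p = 0.0209) and the 8 h difference 0.15, and both passed. The NCS 4 h call was lost with library medians aligned (0.09), in a fit of only the groups compared (adjusted p = 0.0812), and without untreated replicate 2 (0.09), untreated replicate 3 (0.09), NCS 4 h replicate 1 (0.10) or NCS 4 h replicate 3 (0.08). At 24 h of NCS the difference of 0.05 did not pass, but it did under quantile normalization (0.08, adjusted p = 0.0283). Exons of EDEM1 overlap those of an antisense gene, as for HYOU1.

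XBP1 encodes the transcription factor that IRE1 activates by removing a short intron from its mRNA. A value per gene adds up both forms, so splicing cannot be read from these data. Untreated values were 11.66, 11.54 and 11.62, and H2O2 values 12.30, 12.33 and 12.34 at 4 h, 12.41, 12.19 and 12.39 at 8 h, then 11.84, 11.85 and 11.89 at 24 h. All H2O2 libraries lay above all untreated ones, with log2 differences of 0.71 ± 0.04 (adjusted p = 2.11e-10), 0.72 ± 0.04 (adjusted p = 5.39e-10) and 0.25 ± 0.04 (adjusted p = 6.78e-05). At 4 h of NCS the values were 11.53, 11.45 and 11.49, below every untreated library, with a difference of -0.12 that did not pass (adjusted p = 0.0643). It passed with library medians aligned (-0.13, adjusted p = 0.0185), with only genes of mean 5 or more (adjusted p = 0.0177) and without untreated replicate 2 (-0.15, adjusted p = 0.0263). NCS 8 h libraries, at 11.87, 11.88 and 11.87, were higher by 0.26, and NCS 24 h libraries, at 11.76, 11.74 and 11.77, by 0.15. The 24 h call was lost without untreated replicate 2 (0.11, adjusted p = 0.0599).

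**Figure D3:**
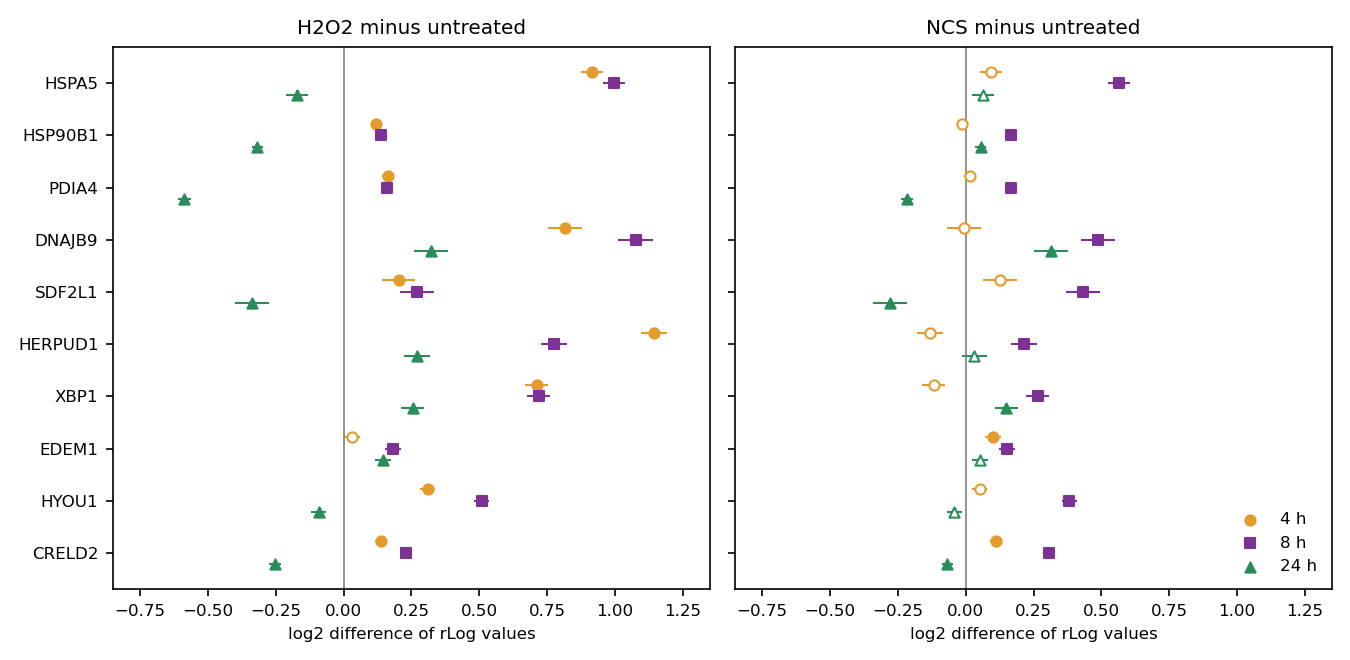
Log2 difference from untreated cells for each gene at 4 h (orange circles), 8 h (purple squares) and 24 h (green triangles) after H2O2 (left) and NCS (right), with bars for 1 SE and open symbols where the adjusted p-value was not under 0.05. After H2O2 the 4 h and 8 h symbols lie right of 0 and 6 of the 10 triangles lie left of it, from -0.59 for PDIA4 to -0.09 for HYOU1.

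The agents were next compared at the same time, where the medium change and hours in culture are shared. At 4 h 7 of the 10 genes were higher with H2O2 than with NCS and 0 were lower, against 26.3% of all genes higher and 18% lower. HERPUD1 differed most, by 1.27 ± 0.05 (adjusted p = 7.72e-13), the only one over 1, against 0.559% of all genes. XBP1 (0.83), HSPA5 (0.83) and DNAJB9 (0.82) followed. HYOU1 (0.26), PDIA4 (0.15) and HSP90B1 (0.13) also passed. In all 7 genes that passed, the libraries of the 2 agents did not overlap, and the share of all genes without overlap was not calculated. SDF2L1, EDEM1 and CRELD2 did not, with differences of 0.08 ± 0.06, -0.07 ± 0.03 and 0.03 ± 0.02. SDF2L1 passed without NCS 4 h replicate 1 (0.15, adjusted p = 0.0418), and EDEM1 passed, as lower with H2O2, without H2O2 4 h replicate 2 (-0.09, adjusted p = 0.0243) or without NCS 4 h replicate 2 (-0.09, adjusted p = 0.0299). CRELD2 passed under quantile normalization (0.07, adjusted p = 0.0124).

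At 8 h the same 4 genes led the difference between the agents. DNAJB9 was higher with H2O2 by 0.59 ± 0.06 (adjusted p = 9.59e-07), HERPUD1 by 0.56 ± 0.05, XBP1 by 0.45 ± 0.04, HSPA5 by 0.43 ± 0.04 and HYOU1 by 0.13 ± 0.03. These were 5 of 10, against 18.7% of all genes higher. CRELD2 was lower with H2O2 (-0.08 ± 0.02, adjusted p = 0.00921), 1 of 10 against 15.4% lower. With library medians aligned the CRELD2 value was -0.06 and did not pass, and neither HYOU1 nor CRELD2 passed in a fit of only these groups. SDF2L1, at -0.16 ± 0.06, did not pass (adjusted p = 0.0586), but did with only genes of mean 5 or more (adjusted p = 0.0271) and without H2O2 8 h replicate 3 (-0.21, adjusted p = 0.0244).

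At 24 h the sign differed between genes. HSP90B1 (-0.37 ± 0.02, adjusted p = 3.73e-10), PDIA4 (-0.37 ± 0.02), HSPA5 (-0.24 ± 0.04) and CRELD2 (-0.18 ± 0.02) were lower with H2O2, 4 of 10 against 10.9% of all genes. HERPUD1 (0.24 ± 0.05, adjusted p = 0.00115) and EDEM1 (0.09 ± 0.03, adjusted p = 0.0336) were higher, 2 of 10 against 11%. For HSPA5 the call was lost under quantile normalization (-0.10, adjusted p = 0.0842). The EDEM1 call was lost with library medians aligned (0.06), in a fit of only these groups, and without H2O2 24 h replicate 1 (0.09) or 3 (0.08) or NCS 24 h replicate 2 (0.08) or 3 (0.08). DNAJB9 was at 9.24 with H2O2 and 9.23 with NCS, a difference of 0.01 ± 0.06. XBP1 (0.11) and HYOU1 (-0.05) did not pass, yet each passed in a fit of only these groups (adjusted p = 0.0117 and 0.0499). XBP1 also passed under quantile normalization (0.13) and with only genes of mean 5 or more, and HYOU1 with library medians aligned (-0.08).

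**Figure D4:**
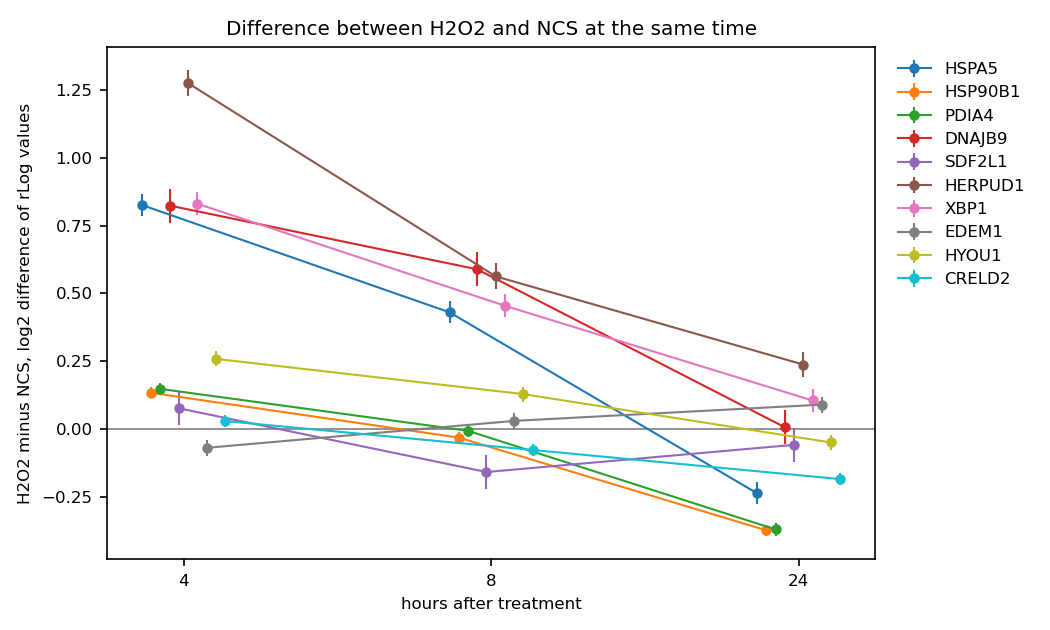
H2O2 minus NCS log2 difference of each gene at 4, 8 and 24 h, with bars for 1 SE and points moved sideways for clarity. HERPUD1, XBP1, HSPA5 and DNAJB9 start between 0.82 and 1.27 at 4 h, and at 24 h HSP90B1 and PDIA4 are lowest at -0.37.

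The steps between times show when each gene turned. From 4 to 8 h of H2O2, DNAJB9 (0.26), HYOU1 (0.20), EDEM1 (0.15) and CRELD2 (0.09) rose further, 4 of 10 against 18% of all genes. HERPUD1 was the 1 gene that fell, by 0.37 on the log2 scale (adjusted p = 4.78e-06), against 27.7% lower. HSPA5, at 0.08, did not pass, but passed without H2O2 8 h replicate 2 (0.15, adjusted p = 3.06e-05), with library medians aligned (0.09) and under quantile normalization (0.18). XBP1 passed narrowly without that same library (0.08, adjusted p = 0.0499), against 0.01 with it. The CRELD2 call was lost under quantile normalization (0.05, adjusted p = 0.0643) and in a fit of only these groups.

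From 8 to 24 h of H2O2 9 of the 10 fell, against 23.2% of all genes lower and 19.4% higher, and the EDEM1 difference of -0.04 did not pass. HSPA5 fell by 1.17 (adjusted p = 2.26e-13), the only one past 1, against 0.376% of all genes. DNAJB9 and PDIA4 each fell by 0.75, SDF2L1 by 0.61 and HYOU1 by 0.60. With NCS the genes turned at 8 h. From 4 to 8 h 9 of 10 rose, from 0.15 for PDIA4 to 0.50 for DNAJB9, against 6.16% of all genes higher and 7.5% lower, and EDEM1 (0.05) did not pass. From 8 to 24 h of NCS 10 of 10 fell, from -0.10 for EDEM1 to -0.71 for SDF2L1, against 15% lower and 14.9% higher. Of those falls 3 were not stable. DNAJB9 (-0.17) lost its call without either of NCS 8 h replicates 1 (-0.12) and 2 (-0.15) or any NCS 24 h replicate (-0.15 to -0.19), XBP1 (-0.12) without any one of these 6 libraries (-0.11 to -0.12), and EDEM1 (-0.10) without NCS 8 h replicate 2 (-0.08) or NCS 24 h replicate 2 (-0.09) or 3 (-0.09). Processing alone also ended these calls. DNAJB9 lost its call under quantile normalization (-0.13, adjusted p = 0.131), without a variance trend (adjusted p = 0.0646) and in a fit of only these groups (adjusted p = 0.105). XBP1 lost it with library medians aligned (-0.09, adjusted p = 0.076) and without a variance trend (adjusted p = 0.0619), and EDEM1 with library medians aligned (-0.07, adjusted p = 0.0863).

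The change of the H2O2 minus NCS difference between 4 h and 24 h was tested directly. It was negative and passed in 8 of 10 genes, against 22.7% of all genes, and was positive in 1, EDEM1 (0.16), against 16.6%. HSPA5 (-1.06 ± 0.06, adjusted p = 2.82e-10) and HERPUD1 (-1.04 ± 0.07, adjusted p = 1.94e-09) changed by more than 1, against 0.523% of all genes. SDF2L1 did not pass (-0.13 ± 0.09, adjusted p = 0.249), but passed without NCS 4 h replicate 1 (-0.21, adjusted p = 0.0402).

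Ordered by group mean, H2O2 8 h was the highest group for 5 genes (HSPA5, DNAJB9, XBP1, EDEM1 and HYOU1), NCS 8 h for 4 (HSP90B1, PDIA4, SDF2L1 and CRELD2) and H2O2 4 h for HERPUD1. The lowest group was H2O2 24 h for the 6 genes that ended below untreated cells, NCS 4 h for DNAJB9, HERPUD1 and XBP1, and untreated cells for EDEM1. Neighbours in this order often overlapped. For EDEM1 all 6 pairs of neighbouring groups shared part of their range, for SDF2L1 4 of 6, for PDIA4 and DNAJB9 3, for HSPA5, HSP90B1 and XBP1 2, and for HERPUD1, HYOU1 and CRELD2 1. Per kilobase of the longest coding transcript (GENCODE v29), untreated levels on the log2 scale were highest for HSPA5 (13.05) and HSP90B1 (12.95). PDIA4 (10.99), XBP1 (10.72), HERPUD1 (10.47) and HYOU1 (10.33) came next, and CRELD2 (9.13), SDF2L1 (8.60), EDEM1 (8.19) and DNAJB9 (7.48) were lowest.

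To describe the pathway more widely, 5 lists of related genes were set beside the 10. The shares of all genes against which their counts stand were 26.2% higher and 19.7% lower at 4 h of H2O2, 18.8% and 18.6% at 8 h, then 20.2% and 19.9% at 24 h. For NCS they were 7.47% and 9.72%, 10.5% and 13.3%, and 19.6% and 18.4%. Of 18 other ER folding genes, 12 were higher and 1 lower at 4 h of H2O2, 11 and 1 at 8 h, then 2 and 10 at 24 h. Their median log2 differences of 0.13, 0.15 and -0.11 had the same signs as the medians of the 10 genes (0.26, 0.39 and -0.13). DNAJC3, a J-domain cochaperone that also inhibits PERK, rose by 0.50 at 8 h, DNAJB11, another BiP cochaperone, by 0.35, and ERO1LB, an oxidase that drives disulfide formation, by 0.31. MANF, a secreted stabilizer of BiP, rose by 0.48 at 4 h and was below untreated cells at 24 h (-0.50). With NCS, 2 of the 18 were higher at 4 h, 10 at 8 h, then 7 higher and 1 lower at 24 h, with SIL1, a nucleotide exchange factor of BiP, higher by 0.42 at 24 h. At 24 h 13 of the 18 were lower with H2O2 than with NCS and 0 higher, against 10.9% and 11% of all genes.

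Of 18 genes of ER-associated degradation and translocation, 8 were higher and 1 lower at 4 h of H2O2, 9 and 2 at 8 h, then 7 and 5 at 24 h, with medians between -0.01 and 0.07, against all-gene shares of 26.2% and 19.7%, 18.8% and 18.6%, and 20.2% and 19.9%. SYVN1, the ubiquitin ligase HRD1, rose by 0.48 at 8 h. SRPRB (0.28), a subunit of the signal recognition particle receptor, SEC61A1 (0.26), the translocation pore, and SELS (0.24), a selenoprotein of the degradation complex, rose with it. NCS gave 1 higher and 3 lower at 4 h, 7 and 0 at 8 h, then 9 and 0 at 24 h, when EDEM2, a relative of EDEM1, was higher by 0.39. The all-gene shares for NCS were 7.47% and 9.72%, 10.5% and 13.3%, and 19.6% and 18.4%, and the 1 gene higher at 4 h is near the first of these. At 24 h 10 of the 18 were lower with H2O2 than with NCS and 0 higher, against 10.9% and 11%.

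Among 10 sensors and proteases of the unfolded protein response, 2 were higher and 4 lower at 4 h of H2O2, against 26.2% and 19.7% of all genes. At 8 h 3 were higher and 5 lower, against 18.8% and 18.6%, and at 24 h 2 and 3, against 20.2% and 19.9%. The 2 higher at 24 h are near the background. ERN1, which encodes IRE1, was higher by 0.72, 0.72 and 0.76 at the 3 times, and by 0.33, 0.42 and 0.42 with NCS. EIF2AK3, which encodes PERK, rose by 0.60 at 4 h of H2O2. CREB3L2 rose by 0.24 and ATF6B fell by 0.24 at 8 h of H2O2, and CREB3 was higher by 0.22 at 24 h of NCS. These 3 encode factors that are cut from the membrane to reach the nucleus, as ATF6 is. With NCS 2 of the 10 were higher and 0 lower at 4 h, against 7.47% and 9.72%, 4 and 2 at 8 h, against 10.5% and 13.3%, then 5 and 1 at 24 h, against 19.6% and 18.4%.

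The 10 genes of the PERK and ATF4 branch stood higher after H2O2 at every time, 10 of 10 with medians of 1.14, 1.54 and 1.47. CHAC1, which degrades glutathione, was higher by 2.27 and the sestrin gene SESN2 by 2.09 at 8 h, and DDIT4, an inhibitor of mTORC1, by 1.89. TRIB3, a pseudokinase that restrains ATF4, was higher by 2.08 and ASNS, asparagine synthetase, by 1.66 at 24 h. SESN2 and DDIT4 are also known targets of p53, and SESN2 was the 1 gene higher at 4 h of NCS (1.10), when 3 were lower. With NCS 7 were higher at 8 h and 10 at 24 h (median 0.77). The all-gene shares higher were 26.2%, 18.8% and 20.2% for H2O2 and 7.47%, 10.5% and 19.6% for NCS. At 4 h of NCS 9.72% of all genes were lower, and the count of 1 higher gene is near its share. All 10 were higher with H2O2 than with NCS at each time, against 26.3%, 18.7% and 11% of all genes.

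The heat shock genes served as chaperones outside the ER. Of 11, 7 were higher and 1 lower at 4 h of H2O2, 4 and 3 at 8 h, then 0 and 8 at 24 h, against all-gene shares of 26.2% and 19.7%, 18.8% and 18.6%, and 20.2% and 19.9%. With NCS the counts were 3 and 0, 0 and 2, and 1 and 6, against 7.47% and 9.72%, 10.5% and 13.3%, and 19.6% and 18.4%. HSPA1B (0.71) and HSPA1A (0.48), stress-induced Hsp70 genes, rose at 4 h of H2O2. They also rose at 4 h of NCS, by 0.56 and 0.42, and the difference between the agents at 4 h did not pass for either (adjusted p = 0.0983 and 0.469). Their coding sequences are nearly identical, so reads may have been split between them or lost. HSP90AA1 (-0.47) and HSPA8 (-0.45) were lower at 24 h of H2O2. HSPD1 (-0.51) was lower too, and it encodes a chaperonin of the mitochondria, where HSPE1 also acts, so the list is not purely cytosolic.

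**Figure D5:**
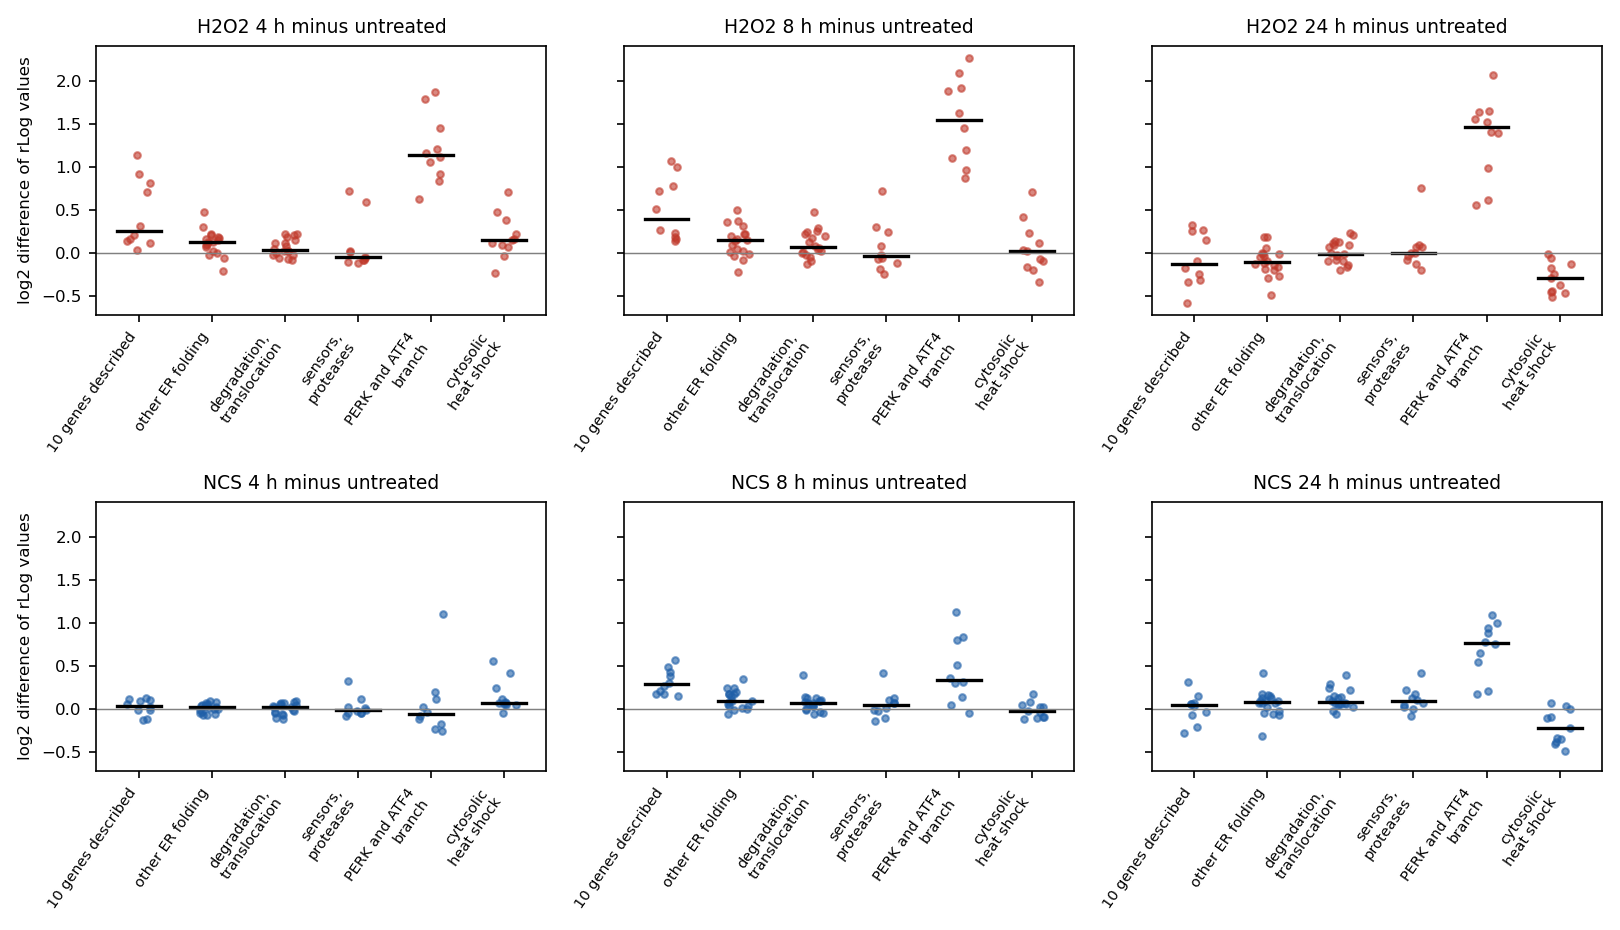
Log2 difference from untreated cells for the 10 genes described and for the 5 lists, at 4, 8 and 24 h after H2O2 (top, red) and NCS (bottom, blue). Each point is a gene, placed sideways at random within its list, and black bars are list medians. The bar of the PERK and ATF4 branch lies at 1.14, 1.54 and 1.47 after H2O2, and the bar of the 10 genes turns from 0.26 and 0.39 to -0.13.

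Genes with the most similar course over the 7 group means were looked up for HSPA5, DNAJB9, XBP1 and SDF2L1 among 11680 other genes with a mean of at least 5. Likeness was the root mean square difference of centred group means. Closest to HSPA5 was PMAIP1 (0.17 on the log2 scale), which encodes the proapoptotic BH3-only protein NOXA. PMAIP1 was higher by 1.15, 1.04 and 0.22 after H2O2 and by 0.29, 0.40 and 0.13 after NCS. MANF and ATRNL1 (0.20 each) followed, and DNAJB9 ranked 5 for HSPA5. The closest gene of all to DNAJB9 was XBP1 (0.11), and outside the 10 genes ISL2, ATRNL1 and GRPEL2 (0.14 to 0.15) were nearest to it. The same 3 genes were nearest to XBP1, at 0.09 to 0.10. For SDF2L1 CRELD2 (0.10) and PDIA4 (0.11) were closer than any of the other genes, followed by CDK2AP2 (0.11) and GMPPB (0.12). CRELD2, PDIA4, HYOU1 and HSP90B1, which also ended below untreated cells after H2O2, ranked 1, 2, 12 and 170 for SDF2L1. HSPA5 ended low as well but ranked 6134, behind EDEM1 (3278), and HERPUD1 ranked only 10822 among the 11680.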

How the data were processed

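RNA was sequenced from hTERT-HPNE cells in 7 groups of 3 replicates. Alignment by the authors used HISAT2 and counting used HTSeq, hg19 is named in the submitters' processing notes, and the deposited log2 values are their DESeq2 rLog values over all 21 libraries, which divide out size factors and shrink differences. Counts were not used here, so depth is unknown. The labels call the replicates biological without naming separate cultures, so p-values measure the spread between these libraries. Genes at 0 in every library (3674) were left out. The other 19694 were fitted with limma 3.58.1 in R 4.3.3, as 7 groups with a mean-variance trend and without a replicate block, and p-values were adjusted by Benjamini-Hochberg over all genes in each of 14 comparisons. The fit was first tested on simulated data. Members and lists were chosen with earlier results of these data known. All 10 genes are named, and of each other list the 5 with the largest change from untreated cells among called genes whose libraries do not overlap. Nearest genes were the 3 with the smallest root mean square difference. For SDF2L1 1 of these is not reported here.

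Motifs, positions and lengths came from RefSeq (GRCh38.p14) and GENCODE v29 (GRCh38), a different build from the alignment, and were matched by symbol only. Alternatives were library medians aligned, quantile normalization, only genes of mean 5 or more, an added limit of 0.58 on the log2 difference, no variance trend, a replicate block, a fit of the compared groups alone, and the omission of single libraries. Other steps used Python 3.11.15, numpy 2.4.6, pandas 2.3.3 and matplotlib 3.10.9. Microscopy, flow cytometry and RT-PCR were not analysed here.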

Additional observations from a re-analysis of the deposited data

Results flagged for a closer look

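The H2O2 minus NCS difference was tested for a change between 4 h and 24 h, as an interaction term in the limma fit. Of the 10 genes 9 passed, 8 with a negative and 1 with a positive change, against 22.7% and 16.6% of all genes. The change on the log2 scale was -1.06 for HSPA5, -1.04 for HERPUD1, -0.82 for DNAJB9, -0.73 for XBP1, -0.52 for PDIA4, -0.51 for HSP90B1, -0.31 for HYOU1 and -0.21 for CRELD2. It was 0.16 for EDEM1, the only gene of the 10 whose H2O2 minus NCS difference increased. These changes do not mean the same course in each gene. For HSPA5, HSP90B1 and PDIA4 the agents changed places, with H2O2 higher at 4 h and lower at 24 h and both differences past the test. For HERPUD1 H2O2 was higher at both times. With 3 libraries in a group, no group was examined for single outlying libraries by Dixon's test.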

How the results depend on the processing

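Of 1740 values of single genes under the alternatives, 1638 kept their direction and side of the threshold, 55 lost a call, 27 gained one and 20 changed sign. Those that changed sign had not passed. With library medians aligned they were PDIA4 for H2O2 against NCS at 8 h (0.0149), DNAJB9 for H2O2 against NCS at 24 h (-0.0193) and PDIA4 for H2O2 8 h against 4 h (0.0106). With quantile normalization they were DNAJB9 for NCS 4 h (4e-04), HSP90B1 for H2O2 against NCS at 8 h (0.0308), DNAJB9 for H2O2 against NCS at 24 h (-0.016) and PDIA4 for H2O2 8 h against 4 h (0.0278). With each library left out, DNAJB9 ranged from -0.0138 to 0.0357 for H2O2 against NCS at 24 h and from -0.0529 to 0.0534 for NCS 4 h, HSP90B1 from -0.0241 to 0.0011 for NCS 4 h and from -0.0012 to 0.0343 for H2O2 8 h against 4 h, PDIA4 from -0.0198 to 0.0147 for H2O2 8 h against 4 h and from -0.0239 to 0.0055 for H2O2 against NCS at 8 h, and XBP1 from -0.0328 to 0.0759 for H2O2 8 h against 4 h. The cause was not tested.

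The number of the 10 genes called for NCS 4 h, 2 in the report, was 4 with a mean value of at least 5, where fewer genes were tested, 1 in a fit of only the groups compared, and 1 to 2 with a library left out, 1 without untreated replicate 3 or NCS 4 h replicate 3. With a log2 difference over 0.58 the counts fell to 4, 4 and 1 for H2O2 at 4, 8 and 24 h, to 0 for NCS at each of these times, and to 4, 1 and 0 for H2O2 against NCS. They were then 0 and 5 for the steps to 8 h and 24 h of H2O2, 0 and 1 for those of NCS, and 4 for the change between 4 h and 24 h. The shares of all genes past 0.58 were not calculated, so these counts have no background beside them. For the fall from 8 to 24 h of NCS, the count of 10 was 7 to 9 with a library left out, and for NCS 24 h the count of 6 was 4 to 5.

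The replicate numbers were also entered as a replicate block. Deviations of same-numbered libraries correlated at -0.11 to 0.21, no comparison had all its pairs over 0.1, and the labels do not say what a number shares, so the numbers were not taken to pair the libraries. With the replicate block 4 genes were called for NCS 4 h, since HERPUD1 (adjusted p = 0.0459) and XBP1 (adjusted p = 0.0355) then passed, and no other call on the 10 genes changed. The rLog values hold no read totals, so the precision of low genes cannot be given, and shrinkage makes differences smaller than in the counts.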

Other observations

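Outside the 10 genes, 37 genes of the promoter table held an ERSE or ERSE-II match, a list drawn up after the data had been seen, and 25 of them were tested. At 8 h of H2O2 6 were higher and 5 lower, with a median log2 difference of -0.0005, against 18.8% of all genes higher and 18.6% lower, so these counts are near the background. At 8 h of NCS 9 were higher and 4 lower, with a median of 0.055, against 10.5% and 13.3%. The higher ones at 8 h of H2O2 included SERP1 (0.37), which steadies membrane proteins during translocation, PDIA6 (0.21), a disulfide isomerase, CALR (0.19) and CANX (0.16), the lectin chaperones calreticulin and calnexin. SYNPO (0.30) and ZNF17 (0.28) were the others. NAV2 (-0.51) and SHCBP1 (-0.57) were the lowest. At 24 h of H2O2 3 were higher and 11 lower, against 20.2% and 19.9%.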
